A study of Mus musculus with 12 samples.

Results

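The Schlafen genes are a mammalian gene family of the immune system, and 7 of them were followed here in CD11c cells from inguinal lymph nodes of mice: Slfn1, Slfn2, Slfn3, Slfn4, Slfn5, Slfn8 and Slfn9. The members were taken by name, and all 7 were found among the 52355 genes to which the transcripts were summed. All 7 also passed the count filter, which left 23729 genes for testing. RNA was sequenced in 12 libraries, 4 per group. The first group held nodes that drained a tumor and came from mice treated with a CD40 agonist (TdLN_CD40), the second tumor-draining nodes without the agonist (TdLN), and the third nodes of healthy mice without tumor or agonist (Healthy_iLN). The tumors were subcutaneous KPC tumors, a mouse model of pancreatic carcinoma, and CD40 is an activating receptor of antigen-presenting cells. The sources used here do not give the strain, genotype, age and sex of the mice, the name, dose and schedule of the agonist, what the TdLN mice received in its place, or how pure the CD11c cells were. Nor do the labels say whether each library is a separate animal, so that a p-value here measures spread among libraries that could be partly technical.

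Schlafen proteins share an N-terminal domain that can bind and, in some members, cut transfer RNA. The family is commonly sorted by length into short forms (Slfn1 and Slfn2), intermediate forms (Slfn3 and Slfn4) and long forms (Slfn5, Slfn8 and Slfn9), which add a helicase-like region. Many members are induced by type I interferon, the antiviral cytokine family that dendritic cells both make and sense, and several restrain proliferation or viral replication. In mice, loss of Slfn2 function leaves T cells and monocytes unable to stay quiescent.

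The 7 genes lie together on chromosome 11 within chr11:82951349-83215154 (GRCm38, GENCODE release M21), a stretch of 263.8 kb that holds 22 annotated genes. Slfn5 (chr11:82951349-82964840), Slfn2 (chr11:83065112-83070678), Slfn1 (chr11:83116849-83122670), Slfn4 (chr11:83175186-83190216) and Slfn3 (chr11:83191330-83215154) are on the plus strand. Slfn9 (chr11:82978390-82991830) and Slfn8 (chr11:83002158-83020810) are on the minus strand. All 7 are annotated as protein-coding.

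The promoters of the long and of the shorter forms held different short motifs, and 60-base windows around them are shown because they sort the members into 2 sets. The sequences are RefSeq's for GRCm38.p6 and run in the direction of the gene, and the windows lie upstream of a transcription start that RefSeq gives. For Slfn5 that start, base 82952102, is 753 bases inside the gene span given above, so that the Slfn5 window lies within the span. In the 3 long forms, capitals mark a match to the core of the interferon-stimulated response element (ISRE), which is GAAA, any 2 bases (NN) and GAAA again, on either strand.
Slfn5 (chr11:82951922-82951981, plus strand): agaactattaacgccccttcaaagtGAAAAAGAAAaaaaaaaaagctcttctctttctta
Slfn8 (chr11:83020824-83020883, minus strand): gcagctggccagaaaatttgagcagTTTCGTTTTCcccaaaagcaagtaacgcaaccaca
Slfn9 (chr11:82991841-82991900, minus strand): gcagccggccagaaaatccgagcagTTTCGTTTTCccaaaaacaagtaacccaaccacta
In the 4 short and intermediate forms, capitals mark ACTTCCTG on either strand, whose reverse complement holds the GGAA core bound by transcription factors of the ETS family. These letters were chosen after the promoters had been read.
Slfn1 (chr11:83116720-83116779, plus strand): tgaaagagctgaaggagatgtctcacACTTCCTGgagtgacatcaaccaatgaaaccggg
Slfn2 (chr11:83065031-83065090, plus strand): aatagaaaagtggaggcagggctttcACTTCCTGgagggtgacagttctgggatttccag
Slfn4 (chr11:83175087-83175146, plus strand): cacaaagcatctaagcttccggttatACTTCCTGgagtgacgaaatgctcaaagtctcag
Slfn3 (chr11:83191253-83191312, plus strand): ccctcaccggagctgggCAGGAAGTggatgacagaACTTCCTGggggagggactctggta

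The ISRE core stood in the promoters of 3 of 7 members, against 3.99% of 27025 genes searched over the same 300 bases, and in 11 of 18 searched genes of a type I interferon response list. Its match began 155 bases before the RefSeq start in Slfn5 and 45 in Slfn9. In Slfn8, for which RefSeq has a pair of starts, the same match began 48 bases before one and 136 before the other. The Slfn8 and Slfn9 windows were identical at 44 of 60 bases. ACTTCCTG stood in 4 of 7 members, against 3.86% of genes and 0 of the 18 interferon list genes, and it occurred on both strands in Slfn3. Because its letters were chosen from these same promoters, its presence in the members was known beforehand, and the contrast is no test of enrichment. The gamma-interferon activation site TTCNNNGAA was found in 0 of 7 members and 9.55% of genes, and the NF-kB motif in Slfn1 and Slfn9 and 5.14% of genes. A match describes these letters in this window and is not evidence of binding.

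The level of each member was set on a per-length scale, TPM, which scales transcript abundances to a fixed total, so that genes could be compared. Slfn2 was the most abundant, with 146 ± 19.1 TPM in TdLN_CD40, 138 ± 24.1 TPM in TdLN and 99.4 ± 16.3 TPM in Healthy_iLN libraries (SD, n = 4 each). Slfn5 came next, with 52.6 ± 14.0 TPM in TdLN_CD40, 50.9 ± 13.8 TPM in TdLN and 35.5 ± 7.60 TPM in Healthy_iLN libraries. Slfn8 followed, with 21.7 ± 5.82 TPM in TdLN_CD40, 21.8 ± 6.65 TPM in TdLN and 14.7 ± 3.70 TPM in Healthy_iLN libraries. These 3 genes kept that order in every library, and in each group their ranges were separate.

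Lower down, the order of the mean levels was also the same in every group, but which ranges overlapped depended on the group. Slfn1 had 14.4 ± 1.26 TPM in TdLN_CD40, 8.09 ± 2.67 TPM in TdLN and 4.85 ± 1.36 TPM in Healthy_iLN libraries. Slfn9 had 4.84 ± 1.35 TPM in TdLN_CD40, 4.48 ± 1.31 TPM in TdLN and 4.62 ± 1.44 TPM in Healthy_iLN libraries. The ranges of Slfn1 and Slfn9 were separate in TdLN_CD40 libraries and overlapped in the other groups, and in healthy nodes Slfn1 was above Slfn9 in 2 of 4 libraries. In TdLN_CD40 libraries the range of Slfn1 instead overlapped that of Slfn8. Slfn3 had 2.83 ± 0.55 TPM in TdLN_CD40, 2.58 ± 0.55 TPM in TdLN and 2.24 ± 0.28 TPM in Healthy_iLN libraries, with a range that overlapped Slfn9 in every group. Within a library Slfn9 was still above Slfn3, in 4 of 4 libraries of each group. Slfn4 was the lowest, with 0.415 ± 0.215 TPM in TdLN_CD40, 0.470 ± 0.264 TPM in TdLN and 0.171 ± 0.061 TPM in Healthy_iLN libraries. The 7 members summed to 243 ± 32.0 TPM in TdLN_CD40, 226 ± 45.8 TPM in TdLN and 161 ± 28.3 TPM in Healthy_iLN libraries, and Slfn2 held 54.6% to 68.9% of the sum in a library.

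**Figure D1:**
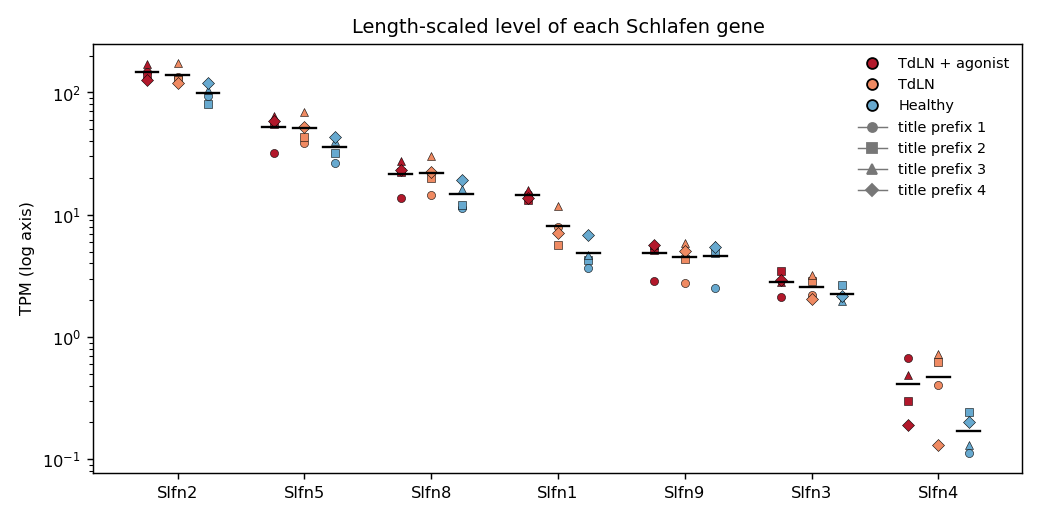
Level of each Schlafen gene in TPM (log axis) in the 12 libraries, with genes ordered by level, groups by color and title prefixes by marker; bars are group means. Slfn2, at a mean of 146 TPM in TdLN_CD40, 138 TPM in TdLN and 99.4 TPM in Healthy_iLN libraries, stands above the others. Slfn1 is the member whose overlap with its neighbors depends on the group.

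Levels within one gene are given from here on as CPM, counts put on a common library size by trimmed mean scaling, and differences as log2 fold changes, each with its standard error (SE). Adjusted p-values come from the quasi-likelihood test of edgeR, with the Benjamini-Hochberg method over all 23729 genes, and a gene was called at an adjusted p under 0.05. Library titles share a prefix across the groups, which gives the replicate numbers 1 to 4 used here. Libraries of the same prefix deviated together, as did some pairs of different prefix, and a second fit took the prefix as a block. Its values are given where they change a call. In such bulk libraries fewer cells of a type and less RNA per cell cannot be told apart.

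Slfn1, a short form first described as a growth inhibitor of thymocytes, was called between TdLN_CD40 and Healthy_iLN nodes in every analysis run. Its CPM was 38.8, 28.3, 36.6 and 28.9 in TdLN_CD40 replicates 1 to 4, 19.5, 11.7, 26.4 and 16.1 in TdLN replicates 1 to 4, and 8.77, 8.48, 10.5 and 14.7 in Healthy_iLN replicates 1 to 4. Every TdLN_CD40 library was above every library of the other groups, whereas TdLN and Healthy_iLN libraries overlapped. Slfn1 rose 3.12-fold in TdLN_CD40 relative to Healthy_iLN nodes (log2 fold change 1.64, SE 0.24, adjusted p = 0.00091), and its log2 fold change was 1.42 to 1.91 over 26 alternative analyses. Against TdLN nodes the TdLN_CD40 libraries were 1.80-fold higher (log2 fold change 0.85, SE 0.23), in 4 of 4 prefix pairs. That difference was not called without the block (adjusted p = 0.0743) and was called with it (log2 fold change 0.89, adjusted p = 0.0237), though not without prefix 1 or 2. Over all alternatives its adjusted p ran from 0.0064 to 0.206. Between TdLN and Healthy_iLN nodes the difference was 0.79 (SE 0.24), higher in 4 of 4 prefix pairs, and it missed the threshold in both fits, with an adjusted p of 0.264 without the block and 0.0694 with it.

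Slfn2, the short form needed for quiescence of mouse T cells and monocytes, had a different course. Its CPM was 353, 273, 364 and 244 in TdLN_CD40 replicates 1 to 4, 298, 237, 349 and 250 in TdLN replicates 1 to 4, and 204, 143, 213 and 237 in Healthy_iLN replicates 1 to 4. All TdLN_CD40 and all TdLN libraries were above every Healthy_iLN library, though barely so between TdLN replicate 2 at 237.4 CPM and Healthy_iLN replicate 4 at 237.0 CPM. TdLN_CD40 against Healthy_iLN nodes gave a log2 fold change of 0.63 (SE 0.19) with an adjusted p of 0.062 without the block and 0.0052 with it. TdLN against Healthy_iLN nodes gave 0.51 (SE 0.19), with an adjusted p of 0.445 without the block and 0.0416 with it. Slfn2 was higher in 4 of 4 prefix pairs in both. TdLN_CD40 and TdLN libraries overlapped, and their difference of 0.12 (95% interval -0.28 to 0.52) was not called in either fit.

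**Figure D2:**
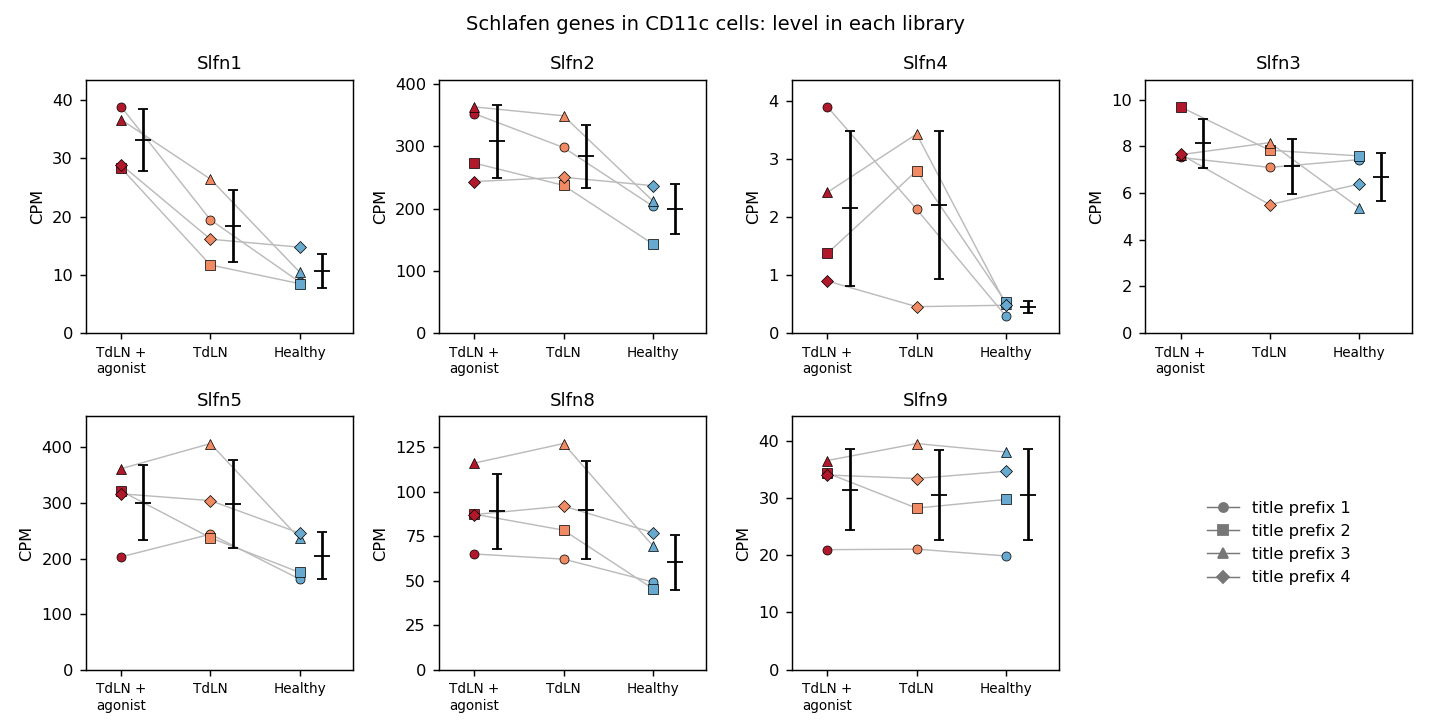
CPM of each Schlafen gene in the 12 libraries, with groups along the horizontal axis, one marker shape per title prefix, gray lines joining libraries of a prefix, and bars for the mean and SD (n = 4). Slfn1 is highest in all 4 TdLN_CD40 libraries, Slfn2 is lowest in the 4 Healthy_iLN libraries, and the Slfn9 lines run nearly level.

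Among the long forms, Slfn5 and Slfn8 were called higher in both kinds of tumor-draining node than in healthy nodes in the fit with the block and not in the fit without it, and Slfn9 was called in neither. Slfn5 encodes a nuclear protein whose human counterpart represses interferon-driven transcription. Its CPM was 203, 321, 362 and 317 in TdLN_CD40 replicates 1 to 4, 244, 237, 407 and 304 in TdLN replicates 1 to 4, and 163, 175, 236 and 246 in Healthy_iLN replicates 1 to 4. The groups overlapped, in TdLN_CD40 through replicate 1 and in TdLN through replicates 1 and 2. TdLN_CD40 against Healthy_iLN nodes gave a log2 fold change of 0.55 (SE 0.22), with an adjusted p of 0.178 without the block and 0.0044 with it. TdLN against Healthy_iLN nodes gave 0.54 (SE 0.22), with an adjusted p of 0.522 without the block and 0.0188 with it. Slfn5 was higher in 4 of 4 prefix pairs in both of these comparisons.

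Slfn8, a long form with the helicase-like region, had 65.0, 87.4, 116 and 87.1 CPM in TdLN_CD40 replicates 1 to 4, 62.1, 78.4, 127 and 91.9 CPM in TdLN replicates 1 to 4, and 49.3, 45.6, 69.7 and 77.0 CPM in Healthy_iLN replicates 1 to 4. In each group replicate 3 or replicate 4 was the highest, and the groups overlapped. TdLN_CD40 against Healthy_iLN nodes gave 0.56 (SE 0.23), with an adjusted p of 0.222 without the block and 0.0057 with it. TdLN against Healthy_iLN nodes gave 0.57 (SE 0.23), with an adjusted p of 0.546 without the block and 0.0207 with it. Between TdLN_CD40 and TdLN nodes neither long form was called, and the intervals from the fit with the block were -0.22 to 0.26 for Slfn5 and -0.25 to 0.26 for Slfn8.

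Slfn9, the closest neighbor of Slfn8 in sequence among the members, had 21.0, 34.3, 36.5 and 34.0 CPM in TdLN_CD40 replicates 1 to 4, 21.1, 28.2, 39.5 and 33.4 CPM in TdLN replicates 1 to 4, and 19.9, 29.7, 38.0 and 34.7 CPM in Healthy_iLN replicates 1 to 4. Replicate 1 was the lowest in each group, and the groups overlapped throughout. With the block the log2 fold change was 0.05 (95% interval -0.12 to 0.21) for TdLN_CD40 against TdLN, 0.05 (-0.11 to 0.22) for TdLN_CD40 against Healthy_iLN, and 0.00 (-0.16 to 0.17) for TdLN against Healthy_iLN. The title prefix held 96.0% of the variance of Slfn9's log2 CPM and the group 0.46%, against averages over all tested genes of 49.1% for the prefix and 25.8% for the group. For Slfn1 the group held 81.1% and the prefix 8.90%. The variance of Slfn5 and Slfn8 was split, with 41.9% held by the group and 46.8% by the prefix for Slfn5, and 38.8% by the group and 50.7% by the prefix for Slfn8.

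The intermediate forms were the least abundant. Slfn3, studied mainly in gut epithelium and T cells, had 7.52, 9.69, 7.64 and 7.65 CPM in TdLN_CD40 replicates 1 to 4, 7.10, 7.83, 8.16 and 5.50 CPM in TdLN replicates 1 to 4, and 7.43, 7.59, 5.37 and 6.38 CPM in Healthy_iLN replicates 1 to 4. Its groups overlapped in all 3 comparisons and no fit called it. The largest of its differences was 0.28 (95% interval -0.11 to 0.67), for TdLN_CD40 against Healthy_iLN nodes.

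Slfn4, known from myeloid cells, where interferon and Toll-like receptor ligands induce it, had the largest fold changes on the lowest counts. Its CPM was 3.90, 1.37, 2.43 and 0.90 in TdLN_CD40 replicates 1 to 4, 2.14, 2.80, 3.43 and 0.45 in TdLN replicates 1 to 4, and 0.29, 0.53, 0.50 and 0.48 in Healthy_iLN replicates 1 to 4. These rest on 41 to 168 counts in a TdLN_CD40 library, 20 to 178 in a TdLN library and 12 to 26 in a Healthy_iLN library. All TdLN_CD40 libraries were above all Healthy_iLN libraries, and TdLN replicate 4 lay within the Healthy_iLN range. Slfn4 rose 4.75-fold in TdLN_CD40 relative to Healthy_iLN nodes (log2 fold change 2.25, SE 0.57, adjusted p = 0.0292). On the deposited TPM scale with a pseudocount the log2 fold change was 0.86 on log2(TPM + 0.1) and 0.26 on log2(TPM + 1), neither of them called. Slfn4 had 0.192 to 0.678 TPM in TdLN_CD40 and 0.111 to 0.241 TPM in Healthy_iLN libraries. A pseudocount of 1 is above all of these values and 0.1 is near the lower ones, so that both shrink the difference by construction. The pseudocount is not the only difference between the scales. Before it, the means of 0.415 TPM in TdLN_CD40 and 0.171 TPM in Healthy_iLN libraries already differed by a smaller factor than 2.15 and 0.450 CPM. The part of the assignment of counts to transcript models in this was not tested. Over the alternatives the log2 fold change ran up to 2.52. The call held in 13 of 25 alternative analyses, whose adjusted p ran from 0.00105 to 0.397. It was lost without any one of TdLN_CD40 replicates 1 and 3 and Healthy_iLN replicates 1 to 4, with an adjusted p of 0.0635 to 0.0944. TdLN against Healthy_iLN nodes gave 2.29 (SE 0.57), with an adjusted p of 0.144, and 0.0547 with the block. Without TdLN replicate 4 the adjusted p of that comparison was 0.029.

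Neutrophil markers, like Slfn4, were lowest in the healthy nodes, but they were not alone in this. The median summed CPM of macrophage, plasma cell and B cell markers was 888, 162 and 302 in Healthy_iLN libraries. It was 1023, 222 and 354 in TdLN and 2100, 252 and 452 in TdLN_CD40 libraries. The summed CPM of 10 neutrophil markers was 116, 70.1, 104 and 65.7 in TdLN_CD40 replicates 1 to 4, 83.3, 76.8, 181 and 54.2 in TdLN replicates 1 to 4, and 23.7, 33.4, 30.8 and 30.3 in Healthy_iLN replicates 1 to 4. Csf3r, at 22.7 to 33.9 CPM, and Cxcr2, at 16.4 to 38.1 CPM, held much of the TdLN_CD40 sums. S100a8 had 1.88 to 19.8 CPM in TdLN_CD40 replicates 1 to 3. In TdLN_CD40 replicate 4 it had 0.525 CPM, within the Healthy_iLN range of 0.021 to 0.745 CPM. Of the 10, 8 could be tested, and Ly6g and Camp, which define mature neutrophils and their precursors, were at or near 0. Between TdLN_CD40 and Healthy_iLN nodes 3 of the 8 were called higher, and 7 with the block. Between TdLN and Healthy_iLN nodes 1 was called higher, Csf3r (32.4 CPM in TdLN and 14.3 CPM in Healthy_iLN libraries), and 5 with the block. The part of these cells in the Slfn4 level was not tested.

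**Figure D3:**
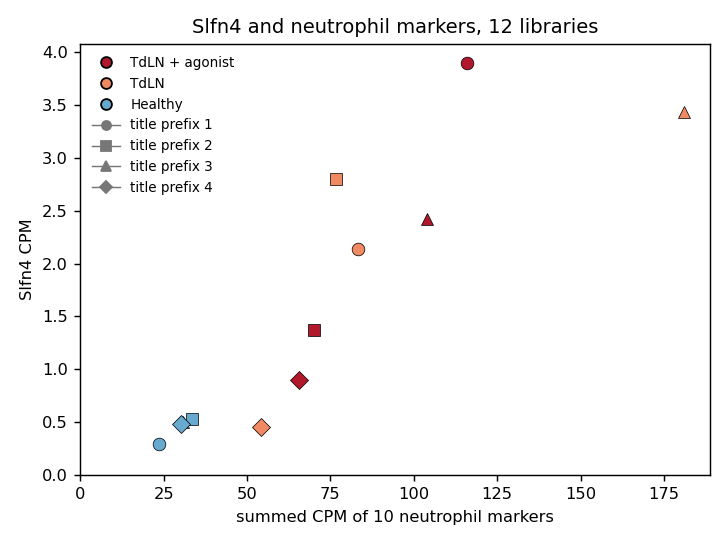
Slfn4 CPM (vertical axis) against the summed CPM of 10 neutrophil markers (horizontal axis) in the 12 libraries, colored by group with one marker shape per title prefix. The 4 Healthy_iLN libraries lie together at the lower left, at 23.7 to 33.4 summed CPM, and the TdLN_CD40 and TdLN libraries spread to the right. All but TdLN replicate 4 also lie higher. That library, at 54.2 summed CPM, has 0.455 CPM of Slfn4, within the Healthy_iLN range of 0.293 to 0.532 CPM.

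Read over the family, the 3 comparisons called few members. In TdLN_CD40 against Healthy_iLN nodes 2 of 7 members were called, Slfn1 and Slfn4, both higher, where 6.28% of all genes were called and 4.25% were called higher. With the block 5 of 7 were called higher, against 11.7% of genes. In TdLN_CD40 against TdLN nodes 0 of 7 were called, where 2.68% of genes were, and with the block 1 of 7, Slfn1, against 6.74% of genes called higher. In TdLN against Healthy_iLN nodes 0 of 7 were called, where 0.198% of genes were, and with the block 3 of 7, Slfn2, Slfn5 and Slfn8, all higher, against 4.02% of genes. The last of these counts depended on the libraries: the block fit called 0 members without prefix 1, 2 or 3 and 5 without prefix 4, an alternative added after the data had been seen. In TdLN_CD40 against Healthy_iLN nodes the block fit called 3 members without prefix 1, 2 without prefix 2 or prefix 3, and 5 without prefix 4. At an unadjusted p under 0.05 edgeR without the block had 5 of 7 members in TdLN_CD40 against Healthy_iLN nodes, where 17.1% of all genes were, 1 of 7 in TdLN_CD40 against TdLN nodes, where 12.9% were, and 5 of 7 in TdLN against Healthy_iLN nodes, where 7.76% were. DESeq2 called 1 member, Slfn4, in TdLN against Healthy_iLN nodes, where limma voom called 0. Both called 1 member, Slfn1, in TdLN_CD40 against TdLN nodes.

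The members' median log2 fold change was 0.56 in TdLN_CD40 against Healthy_iLN nodes, beside -0.03 over all genes. It was 0.04 in TdLN_CD40 against TdLN nodes, beside 0.02 over all genes, and 0.54 in TdLN against Healthy_iLN nodes, beside -0.02 over all genes. The comparisons share libraries in pairs and are not independent. Groups that did not overlap were found for Slfn1, Slfn2 and Slfn4 in TdLN_CD40 against Healthy_iLN nodes, where 7.6% of genes were entirely higher. They were found for Slfn1 in TdLN_CD40 against TdLN nodes, where 4.86% were, and for Slfn2 in TdLN against Healthy_iLN nodes, where 2.57% were.

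**Figure D4:**
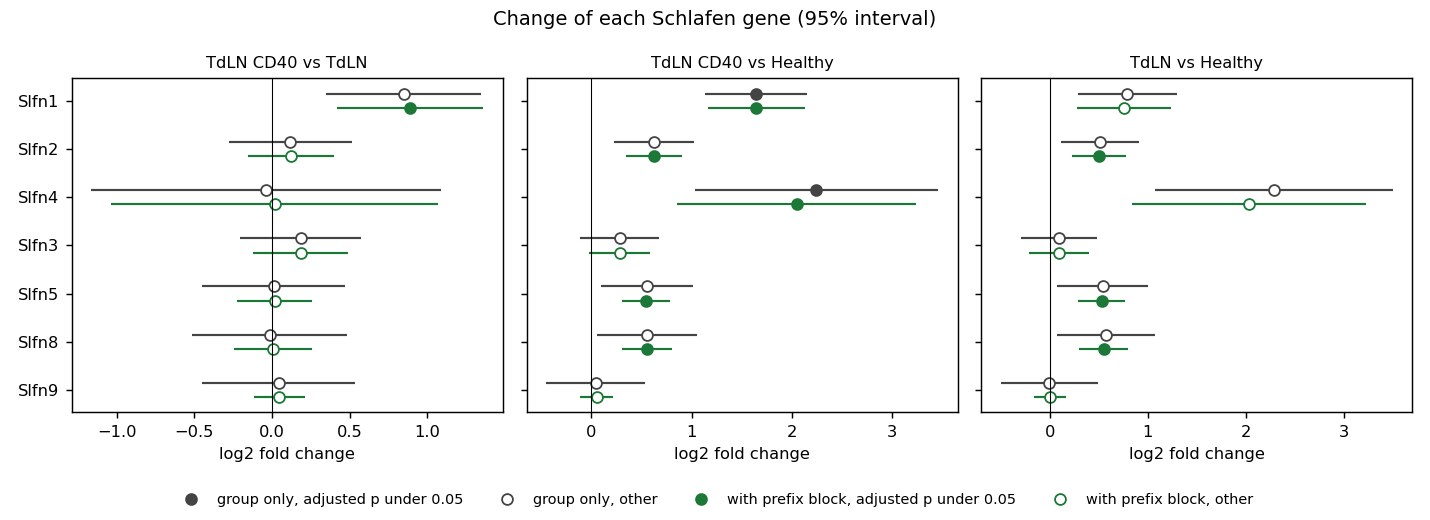
Log2 fold change of each Schlafen gene with its 95% interval in the 3 comparisons, from the fit with the group only (dark) and the fit with the title prefix as a block (green); filled points have an adjusted p under 0.05. Slfn1 and Slfn4 are filled in both fits for TdLN_CD40 against Healthy_iLN, and Slfn9 sits at 0 in all 3 panels.

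Ratios of one member to another within a library were compared next, since scaling between libraries cancels in them. The ratio of Slfn1 to Slfn2 was 0.110, 0.104, 0.101 and 0.119 in TdLN_CD40 replicates 1 to 4, 0.0652, 0.0492, 0.0757 and 0.0643 in TdLN replicates 1 to 4, and 0.0430, 0.0592, 0.0492 and 0.0622 in Healthy_iLN replicates 1 to 4. The TdLN_CD40 libraries were separate from both other groups, and the other groups overlapped. The ratio of Slfn8 to Slfn9 was 3.10, 2.54, 3.18 and 2.56 in TdLN_CD40 replicates 1 to 4, 2.95, 2.78, 3.22 and 2.75 in TdLN replicates 1 to 4, and 2.48, 1.53, 1.83 and 2.22 in Healthy_iLN replicates 1 to 4. Both groups of tumor-draining nodes were above all Healthy_iLN libraries. The ratio of Slfn5 to Slfn9 likewise ran from 9.31 to 9.90 in TdLN_CD40 and 8.42 to 11.6 in TdLN libraries, against 5.89 to 8.21 in Healthy_iLN libraries. Over all 21 pairs of members and 3 comparisons, 14 of 63 ratios had separate ranges. A two-sided exact permutation test of 4 against 4, which did not use the prefix pairs, cannot go below p = 0.0286. After Benjamini-Hochberg adjustment over the 63 tests the smallest adjusted p was 0.129, and no ratio was called. With that lower bound a call would have needed far more than 14 separate ratios, so that the lack of calls decides nothing about a ratio.

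**Figure D5:**
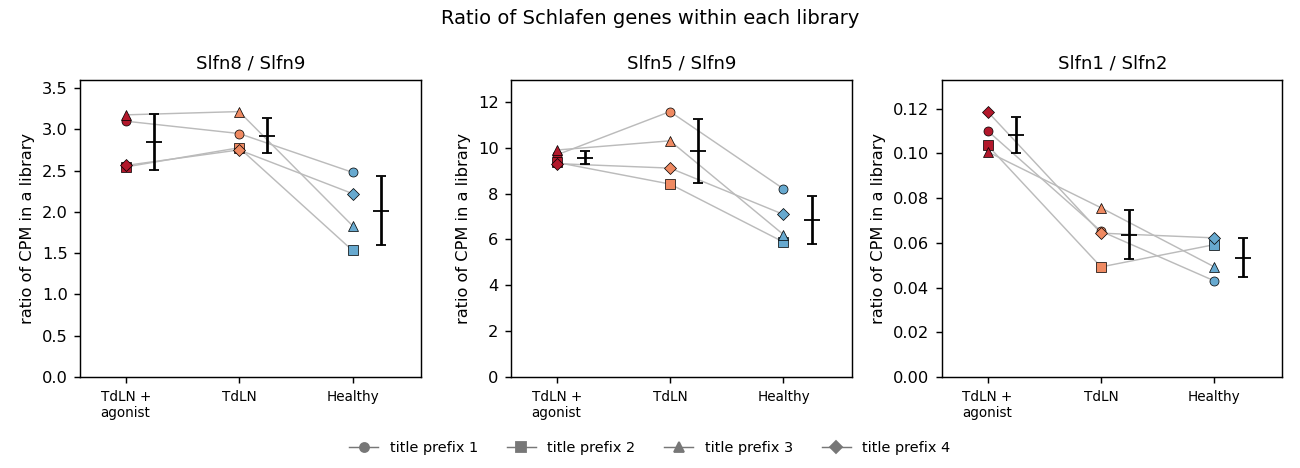
Ratio of CPM of Slfn8 to Slfn9, Slfn5 to Slfn9 and Slfn1 to Slfn2 in each of the 12 libraries, with bars for the mean and SD (n = 4) and gray lines joining libraries of a title prefix. The Slfn8 and Slfn5 ratios are lowest in the Healthy_iLN libraries, and the Slfn1 ratio is highest in the TdLN_CD40 libraries.

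The counting of members that share part of their sequence limits some of these values. Slfn8 shared 26.7% and Slfn9 19.8% of the 31-base words of their transcripts with other members or with the pseudogene Slfn10-ps. Slfn3 shared 15.9% and Slfn4 15.3%, mostly with each other, and Slfn2 shared 8.14%. Slfn1 shared 1.96% and Slfn5 shared 0%. With Slfn3 and Slfn4 merged, as with Slfn8 and Slfn9 merged, only Slfn1 was called, in TdLN_CD40 against Healthy_iLN nodes. The merged counts of Slfn3 and Slfn4 are mostly those of Slfn3. It had a mean of 8.13 CPM beside 2.15 CPM for Slfn4 in TdLN_CD40, and 6.69 CPM beside 0.450 CPM in Healthy_iLN libraries. The antisense gene Slfn5os overlaps Slfn5, and no source used here states the strand setting of the quantification. It had 4.27 ± 1.46 CPM in TdLN_CD40, 5.24 ± 1.25 CPM in TdLN and 3.26 ± 1.18 CPM in Healthy_iLN libraries (SD, n = 4 each) and was not called.

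The shares that transcript models took of a gene's TPM were not tested. Among the long forms, Slfn5-201 held 55.0 ± 4.83% of Slfn5's TPM in TdLN_CD40, 57.0 ± 2.44% in TdLN and 59.3 ± 5.57% in Healthy_iLN libraries. Slfn8-201 held 44.4 ± 2.25% of Slfn8's TPM in TdLN_CD40, 42.6 ± 4.28% in TdLN and 48.0 ± 9.15% in Healthy_iLN libraries. The ranges of both overlapped between groups. For Slfn9 the main model, Slfn9-201, held 78.5 ± 5.45% in TdLN_CD40, 84.8 ± 3.05% in TdLN and 87.9 ± 6.13% in Healthy_iLN libraries. Slfn9-203 held 19.3 ± 4.91% in TdLN_CD40, 11.3 ± 3.74% in TdLN and 11.8 ± 5.90% in Healthy_iLN libraries, with ranges that overlapped. The minor model Slfn9-202 held 0.892% to 3.97% in TdLN_CD40, 3.04% to 6.06% in TdLN and 0% to 1.2% in Healthy_iLN libraries, so that its TdLN and Healthy_iLN ranges were separate.

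The division of Slfn4, which rests on few counts, differed more. Slfn4-201 held 11.7% to 100% of Slfn4's TPM in TdLN_CD40 and 15.4% to 55.0% in TdLN libraries, and it was listed at 0 in every Healthy_iLN library. Slfn4-203 was listed at 0 in every TdLN_CD40 library, held 0% to 50.2% in TdLN libraries and held 29.5% to 84.5% in Healthy_iLN libraries. The 3 models of Slfn3 overlapped between groups, and Slfn1 and Slfn2 have a single model each.

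Other Schlafen genes and neighbors of the cluster were set beside the members. The pseudogene Slfn10-ps, between Slfn8 and Slfn2, had 7.85 to 14.3 CPM in TdLN_CD40, 3.72 to 7.35 CPM in TdLN and 4.81 to 10.2 CPM in Healthy_iLN libraries. It was above every TdLN library in all TdLN_CD40 libraries, and its log2 fold change of 0.92 (SE 0.28) had an adjusted p of 0.111 without the block and 0.00254 with it. Against Healthy_iLN nodes, whose range it overlapped, the log2 fold change of 0.78 (SE 0.28) had an adjusted p of 0.132 without the block and 0.0040 with it. Slfn14 had at most 2 counts and Slfnl1 at most 14 counts in a library, and neither was tested. The nearby genes Nle1, Unc45b and Ap2b1 were not called in any of the 3 comparisons in either fit.

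The interferon pathway around the family was described through a list of 25 type I interferon response genes that holds no Schlafen gene. In TdLN_CD40 against Healthy_iLN nodes 21 of 25 were called higher and 0 lower, with a median log2 fold change of 1.68. The 4 with the smallest p were Oasl1, Ifi44, Rsad2, an antiviral enzyme, and Isg15, a ubiquitin-like modifier. Isg15 had 27.8 ± 5.30 CPM in TdLN_CD40 and 6.32 ± 2.08 CPM in Healthy_iLN libraries (log2 fold change 2.13, adjusted p = 0.000173). In TdLN_CD40 against TdLN nodes 7 of 25 were called higher, with a median of 0.72, and with the block 14. Oasl1, an oligoadenylate synthetase-like protein, had 44.0 ± 6.91 CPM in TdLN_CD40 and 14.8 ± 3.50 CPM in TdLN libraries (log2 fold change 1.57, adjusted p = 0.0031). In TdLN against Healthy_iLN nodes 1 of 25 was called, Oas2, an oligoadenylate synthetase. It had 8.43 ± 2.80 CPM in TdLN and 2.56 ± 1.04 CPM in Healthy_iLN libraries (log2 fold change 1.72, adjusted p = 0.0475). The median there was 0.79, and with the block 19 were called higher and 1 lower. That block count fell to 0 higher without prefix 1 and to 1 higher without prefix 2 or prefix 3, and it was 22 higher without prefix 4.

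Of 11 interferon receptors and signal transducers, 3 were called higher and 0 lower in TdLN_CD40 against Healthy_iLN nodes, 2 higher and 0 lower in TdLN_CD40 against TdLN nodes, and 0 in TdLN against Healthy_iLN nodes, where edgeR gave 0 an unadjusted p under 0.05. With the block 6 were called higher and 1 lower, 4 higher and 3 lower, and 5 higher and 0 lower, in the same order. Irf1, an interferon-induced transcription factor of that list, had 491 ± 47.2 CPM in TdLN_CD40, 285 ± 30.6 CPM in TdLN and 286 ± 37.2 CPM in Healthy_iLN libraries. It rose in TdLN_CD40 against TdLN nodes (log2 fold change 0.79, adjusted p = 0.0073) and against Healthy_iLN nodes (0.78, adjusted p = 0.0035). Of 6 interferon ligands only Ifng, encoding interferon gamma, had enough counts to be tested. It had 2.61 ± 0.96 CPM in TdLN_CD40, 0.469 ± 0.178 CPM in TdLN and 0.726 ± 0.523 CPM in Healthy_iLN libraries, and it rose in TdLN_CD40 against TdLN nodes (log2 fold change 2.47, adjusted p = 0.0171) and against Healthy_iLN nodes (1.84, adjusted p = 0.0382).

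Lists tied to functions reported for Schlafen proteins changed in few members in the fit without the block. Of 7 quiescence regulators, 1 was called, Btg2, an antiproliferative gene. It fell in TdLN_CD40 nodes against TdLN nodes (log2 fold change -0.77, adjusted p = 0.0105) and against Healthy_iLN nodes (-0.89, adjusted p = 0.00197). With the block, 4 of the 7 were called lower and 2 higher against TdLN nodes, and 4 lower and 1 higher against Healthy_iLN nodes. The block fit called 3161 of all 23729 genes against TdLN nodes, with 6.74% of genes called higher. Against Healthy_iLN nodes it called 4781, with 11.7% of genes called higher. Of 10 proliferation genes, 0 were called by edgeR in any comparison without the block, and 5 had an unadjusted p under 0.05 in TdLN against Healthy_iLN nodes. With the block 5 were called higher there, where 4.02% of all genes were, with Birc5 at 23.3 ± 3.93 CPM in TdLN and 14.6 ± 4.06 CPM in Healthy_iLN libraries. That block fit called 1495 genes in all, but 107 without prefix 1, 193 without prefix 2 and 164 without prefix 3. In TdLN_CD40 against TdLN nodes the block fit called 1 of the 10 lower, Mki67 (edgeR adjusted p = 0.0131), and 0 higher.

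Genes with the pattern most like each member were named by Pearson's r of log2 CPM over the 12 libraries, among 10754 protein-coding genes, as a description. Cxcl10, an interferon-induced chemokine, was closest to Slfn1 (r = 0.99), followed by Zbp1, a nucleic acid sensor (0.98), and 1600014C10Rik (0.98). Closest to Slfn5 were Ifi209 (0.97), Rest, a transcriptional repressor (0.96), and Trim30a (0.96). Closest to Slfn8 were Irf9, the DNA-binding subunit of an interferon-activated transcription factor (0.98), Rnf34, a ubiquitin ligase (0.98), and Trim30a (0.97), and Slfn5 and Slfn8 were themselves alike at 0.96. Closest to Slfn2 were Siglece (0.96), Tmem14c (0.95) and Psmb2, a proteasome subunit (0.95). Closest to Slfn3 were Ccnyl1 (0.94), Katnbl1 (0.88) and Dynlt3 (0.85). Closest to Slfn4 were Ccrl2, a chemokine receptor-like gene of myeloid cells (0.94), Rasgef1b (0.93) and Ifitm1, an interferon-induced membrane protein (0.93). Closest to Slfn9 were Micu2, a regulator of mitochondrial calcium uptake (0.98), Nop14 (0.97) and Ddx19b (0.96). The 12 libraries share groups and prefixes, on which these values rest.

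Cell markers in the libraries differed between groups beside these results. The 6 dendritic cell markers, Itgax among them, were present in all libraries, and their summed CPM was 17079 to 24212 in TdLN_CD40, 24645 to 39988 in TdLN and 24170 to 39373 in Healthy_iLN libraries. Most of each sum came from H2-Aa, H2-Ab1 and Cd74, whereas Itgax had 641 to 921 CPM in TdLN_CD40, 751 to 1130 CPM in TdLN and 647 to 1090 CPM in Healthy_iLN libraries. In TdLN_CD40 against Healthy_iLN nodes 0 of the 6 were called higher and 2 lower, and with the block 0 higher and 5 lower. The 9 macrophage markers summed to 1496 to 2180 CPM in TdLN_CD40, 748 to 1247 CPM in TdLN and 706 to 1008 CPM in Healthy_iLN libraries, and 7 of 9 were called higher and 1 lower in TdLN_CD40 against Healthy_iLN nodes. The 6 mature dendritic cell markers summed to 4663 to 7580 CPM in TdLN_CD40, 1949 to 3487 CPM in TdLN and 2343 to 3681 CPM in Healthy_iLN libraries. Of 10 T cell markers, 0 were called higher and 4 lower in TdLN_CD40 against Healthy_iLN nodes, where 1 of 10 had a log2 fold change above 0 and the median was -0.99. Their sums nevertheless overlapped at 298 to 562 CPM in TdLN_CD40, 343 to 584 CPM in TdLN and 390 to 588 CPM in Healthy_iLN libraries. Cd4 held much of these sums, with 114 to 281 CPM in TdLN_CD40 and 152 to 302 CPM in Healthy_iLN libraries. Of 8 natural killer cell markers, 1 was called higher against either group, Gzma. Of 6 type 1 dendritic cell markers, 0 were called higher and 4 lower in TdLN_CD40 against Healthy_iLN nodes, with sums of 922 to 1912 CPM in TdLN_CD40, 1801 to 3605 CPM in TdLN and 2191 to 3834 CPM in Healthy_iLN libraries. Of 6 type 2 dendritic cell markers, 1 was called higher and 3 lower there. Of 8 monocyte markers, 1 was called higher and 2 lower there, and their sums were 355 to 559 CPM in TdLN_CD40, 522 to 792 CPM in TdLN and 567 to 862 CPM in Healthy_iLN libraries. Of 5 plasma cell markers tested, 2 were called higher in TdLN_CD40 and 2 in TdLN nodes, each against Healthy_iLN nodes, with sums of 174 to 300 CPM in TdLN_CD40, 181 to 384 CPM in TdLN and 134 to 175 CPM in Healthy_iLN libraries. Of 8 B cell markers 1 was called higher in TdLN_CD40 against either other group, and of 6 plasmacytoid dendritic cell markers 0 were called in any comparison without the block, where edgeR gave 2 an unadjusted p under 0.05 in TdLN_CD40 against either other group. The part of these markers in the Schlafen levels was not tested. Estimated counts totalled 32626784 to 56320661 in a library.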

How the data were processed

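RNA extraction used a Qiagen column kit for small samples, and library preparation the strand-keeping NEBNext Ultra II chemistry, per the labels' protocols. The authors estimated counts per transcript with Salmon on mm10, per the submitters' processing notes, and deposited them unnormalized. TPM values were deposited from that same run, scaled by the authors to 1 common total, per the submitters' processing notes. Both the counts and the TPM values were deposited under the name sailfish rather than Salmon, which the sources do not explain. The sources used here name no program version, annotation release, strand setting or filter.

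Of 132374 transcripts, 131974 were matched to GENCODE release M21 and summed to 52355 genes. The 400 left out held 0.116% to 0.147% of a library's counts. Sums were rounded to whole numbers. Testing used edgeR 4.0.16 in R 4.3.3 (robust quasi-likelihood fit, TMM scaling, filterByExpr with a minimum count of 10, Benjamini-Hochberg adjustment). All 12 libraries entered with the group alone in the model, giving 9 residual degrees of freedom and a biological variation of 33.9%. Libraries of a group were never identical, with a chi-square of at least 24.9 per degree of freedom in each of 18 pairs.

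A prefix in the titles is shared by 1 library of each group, and the sources do not say what it marks. Deviations from group means correlated at 0.20 to 0.47 in the 12 same-prefix pairs. In the 36 others they correlated at -0.45 to 0.33, with a median of -0.24, so that the ranges overlapped. Deviations within a group cancel by construction, so that positive same-prefix values push the others down and part of this contrast is built in. Because all same-prefix values were positive, the prefix was treated as pairing the libraries. A second fit used it as a replicate block (6 residual degrees of freedom, variation 20.7%). That fit called 1495 genes in TdLN against Healthy_iLN, 3161 in TdLN_CD40 against TdLN and 4781 in TdLN_CD40 against Healthy_iLN nodes.

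Other alternatives were DESeq2 1.42.0, limma 3.58.1 (voom, and log2 TPM with a pseudocount of 0.1 or 1), other scaling, no count filter, a fit that was not robust, only the groups compared, merged paralogs and each library left out. The fitting was tested on simulated data. Named genes were taken from all members, up to 4 called genes of each list by smallest p in a comparison (otherwise 2), and the 3 protein-coding genes most like each member, among those averaging a log2 CPM of 2 or more. Csf3r, Cxcr2, S100a8 and Gzma were named after their values were seen. The members and lists were chosen with earlier results of these data known. Promoters came from RefSeq's GRCm38.p6 table, and proteins were not used here. Some genes of the lists and of the chromosome 11 neighborhood are not reported here.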

Additional observations from a re-analysis of the deposited data

Results flagged for a closer look

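Of 21 sets of 4 libraries, one for each member and group, 2 held a library whose gap to its nearest neighbor took most of the range of the set, at a level that chance passes in about 1 in 20 sets. Slfn3 in TdLN_CD40 replicate 2 was 9.69 CPM, where the other TdLN_CD40 libraries had 7.52 to 7.65 CPM. Slfn9 in TdLN_CD40 replicate 1 was 21.0 CPM, where the other TdLN_CD40 libraries had 34.0 to 36.5 CPM. Replicate 1 was also the lowest for Slfn9 in the other groups, at 21.1 CPM in TdLN and 19.9 CPM in Healthy_iLN nodes.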

How the results depend on the processing

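Slfn1 in TdLN_CD40 against Healthy_iLN nodes kept its direction and call in all 26 alternatives. The counts below are for TdLN against Healthy_iLN, TdLN_CD40 against TdLN and TdLN_CD40 against Healthy_iLN nodes, in that order. Called genes numbered 47, 635 and 1490; they were 1495, 3161 and 4781 with the title prefix as a replicate block, 393, 1182 and 2154 with DESeq2, 1, 661 and 1413 with limma voom, and 75, 507 and 1195 with no count filter. They were 25, 510 and 1328 with only the groups compared, 10, 266 and 818 with log2(TPM + 0.1), and 10, 289 and 821 with log2(TPM + 1). Called members numbered 0, 0 and 2; they were 3, 1 and 5 with the block, 1, 1 and 3 with DESeq2, 0, 1 and 1 with voom, and 0, 0 and 1 with either TPM scale or with merged paralogs. Called interferon response genes numbered 1, 7 and 21; they were 20, 14 and 22 with the block, 15, 9 and 21 with DESeq2, 0, 8 and 21 with voom, 3, 6 and 20 with no filter, 0, 8 and 20 with only the groups compared, and 0, 3 and 19 with either TPM scale. The cause of these shifts was not tested.

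With 1 library left out of the fit without the block, called genes ran from 0 to 101 (TdLN against Healthy_iLN), 323 to 547 (TdLN_CD40 against TdLN) and 829 to 1535 (TdLN_CD40 against Healthy_iLN nodes), members from 0 to 1, 0 to 1 and 1 to 2, and interferon response genes from 0 to 1, 3 to 9 and 19 to 21. With 1 prefix left out of the block fit (added after the data had been seen), called genes ran from 107 to 1502, 1609 to 2333 and 2751 to 4450, members from 0 to 5, 0 to 1 and 2 to 5, and interferon response genes from 1 to 23 and 9 to 19, and were 22 throughout for the last. In TdLN against Healthy_iLN nodes the block fit called 107 genes without prefix 1, 193 without prefix 2, 164 without prefix 3 and 1502 without prefix 4. Differences near 0 changed sign and were called in no alternative. For TdLN against Healthy_iLN nodes Slfn9 was 0.021 with relative log expression scaling, 0.022 with DESeq2, 0.0030 with the block, and -0.18 to 0.13 in the left-out fits, and Slfn3 was -0.086 to 0.21 in the left-out fits. For TdLN_CD40 against TdLN nodes Slfn4 was 0.047 with voom, 0.017 with the block and -0.50 to 0.33 in the left-out fits. Slfn5 there was -0.012 with relative log expression scaling or DESeq2, -0.0064 with no filter and -0.15 to 0.20 in the left-out fits. Slfn8 was 0.0037 with voom, 0.0049 with the block and -0.17 to 0.20 in the left-out fits, and Slfn9 was -0.10 to 0.20. For TdLN_CD40 against Healthy_iLN nodes Slfn9 was -0.14 to 0.18 in the left-out fits. Slfn4 rests on 12 to 26 counts in a Healthy_iLN library, which limits its precision.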
